A study of Homo sapiens with 24 samples.

Results

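The change of the YC-1 effect over time was measured in RBE, an established human cholangiocarcinoma line that the labels describe as IDH1-mutant and as having high SULT1A1 expression. All 12 RBE libraries of the 24 in the series were used, and the other 12 came from a second line, SNU-1079. RBE cells received YC-1 for 16 h, DMSO for 16 h, YC-1 for 6 h or DMSO for 6 h, with 3 libraries in each of these 4 groups. DMSO, a common solvent for such compounds, served as the control, and no dose is stated in the labels. The design text calls the 3 libraries of a group biological replicates, and nothing says how the cultures were kept apart. The times used here are those in the titles and in the design, because another label gives 16 h for all DMSO samples and 6 h for all YC-1 samples. Of 11 epithelial and bile duct markers matched, 10 averaged at least 100 normalised counts in DMSO cells (KRT7, KRT8 and KRT19 among them). Of the 12 hepatocyte markers, 2 did so, as did 1 of 10 stromal markers and 1 of 12 leukocyte markers (CD68).

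YC-1 is a small indazole compound that stimulates soluble guanylate cyclase and lowers HIF-1 activity in cultured cells, and the title of the study places it among alkylators that need sulfonation, the reaction that SULT1A1 catalyses. A cell under chemical stress switches on immediate early transcription factors such as FOS and EGR1 within minutes, and then the ATF4 and CHOP programme of amino acid supply and the p53 programme of cell cycle arrest. Many early messages are unstable and are shut off again by feedback proteins, so the time of sampling decides which part of a response is seen.

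The measured value is the normalised count, the authors' read count per gene divided by a size factor per library. For each gene the YC-1 effect is the difference between YC-1 and DMSO on the log2(normalised count + 1) scale, and the change of the effect is the effect at 16 h minus the effect at 6 h. A gene was called when limma's moderated test gave a Benjamini-Hochberg adjusted p under 0.05 over the 16229 genes tested, and all adjusted p-values below come from this test. Normalised counts summed to between 20890000 and 27010000 per RBE library. The YC-1 libraries at 6 h, replicates 1 and 2, had the lowest rough depths, near 12000000 and 13300000 reads, and the highest of the 12 was near 41000000.

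The YC-1 effect was called for more genes at the later time. At 16 h 11377 genes were called (70.1% of those tested), 5797 higher and 5580 lower with YC-1, and at 6 h 6874 genes (42.4%), 3353 higher and 3521 lower. The median size of the effect over all genes was 0.7 at 16 h and 0.35 at 6 h. Both times called 5954 genes, of which 5719 had the same sign, and across genes the effects had a Spearman rho of 0.73. The change of the effect itself was called for 6429 genes (39.6%), with 3063 more positive (18.9%) and 3366 more negative (20.7%) at 16 h than at 6 h. The count of 6429 became 4147 without YC-1 6 h replicates 1 and 2, and the cause was not tested. In bulk RNA, fewer cells of one kind and less RNA per cell cannot be told apart.

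The levels of far more genes differed between the times in YC-1 cells than in DMSO cells. Between 16 h and 6 h, 8506 genes (52.4%) were called in YC-1 cells, 4064 higher (25.0%) and 4442 lower (27.4%) at 16 h. In DMSO cells 79 genes (0.487%) were called, 26 higher (0.16%) and 53 lower (0.327%), and 1824 had an unadjusted p under 0.05. The count of 79 became 18 without DMSO 16 h replicate 2, 27 without DMSO 16 h replicate 3, 49 without DMSO 6 h replicate 1 and 52 without YC-1 6 h replicate 2. Over the 6429 genes with a called change, the median absolute difference between the times was 0.66 in YC-1 cells and 0.12 in DMSO cells. In 286 of them the DMSO difference was the larger.

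Genes were sorted by 3 calls, those at 16 h and 6 h and that on the change. Growing genes, called the same way at both times and further from 0 at 16 h, numbered 2658 (16.4%), 1050 higher and 1608 lower with YC-1. Sustained genes, called the same way at both times with no called change, numbered 2957 (18.2%), and late-only genes, called at 16 h alone with a called change, 2984 (18.4%). Transient genes, called at 6 h alone with a called change, were 370 (2.28%). Reversing genes had opposite signs at the times (235, 1.45%), and receding genes kept their sign but came closer to 0 at 16 h (104, 0.641%). Another 2989 called genes met none of these rules. Of the 370 transient genes 248 were higher with YC-1 at 6 h, as were 142 of the 235 reversing genes, and 90 of the 104 receding genes were higher at both times.

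**Figure D1:**
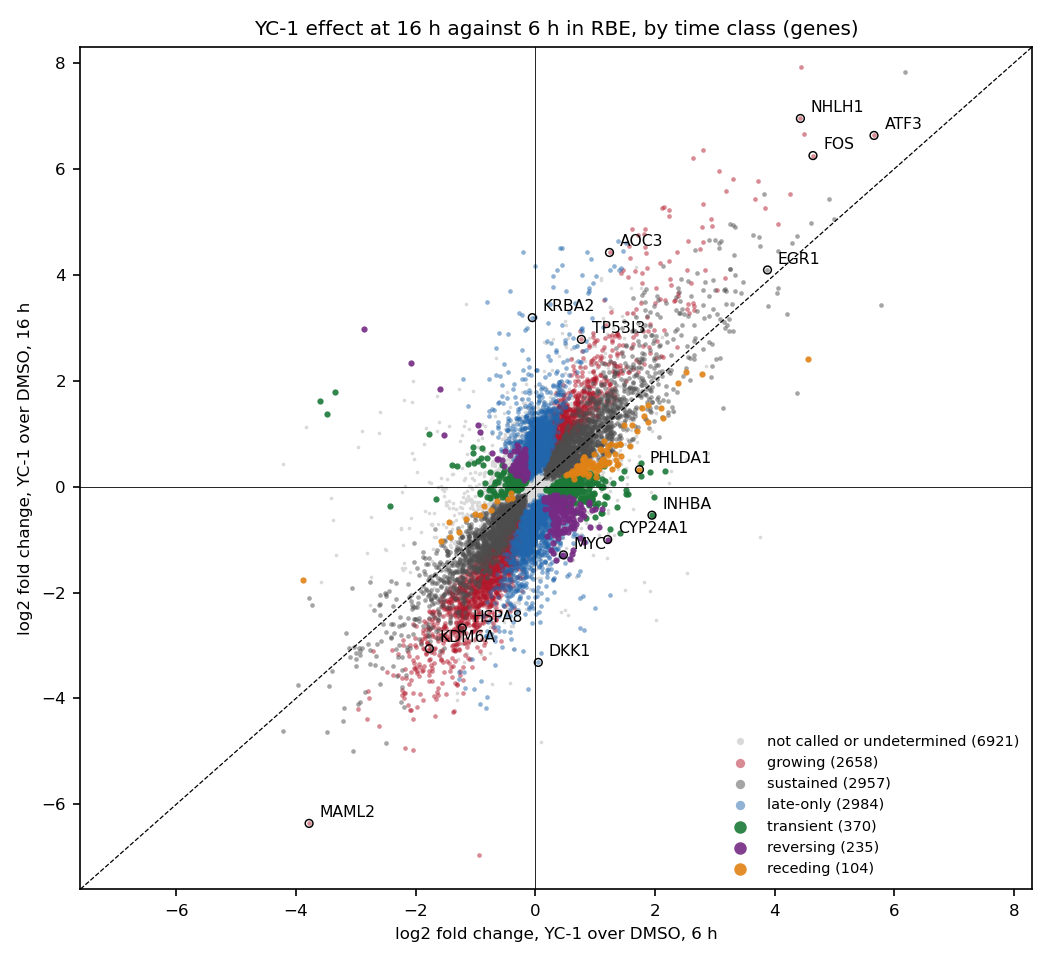
YC-1 effect in RBE at 16 h (y axis) against 6 h (x axis), both as log2 fold change of YC-1 over DMSO, for the 16229 tested genes coloured by time class, with class sizes in the legend. Growing genes such as ATF3 (6.63 at 16 h, 5.66 at 6 h) lie further from 0 than the dashed line of equal effects, late-only genes such as KRBA2 and DKK1 lie along the vertical axis, and transient and reversing genes such as INHBA and MYC lie at or beyond the horizontal axis.

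The class of a gene depended on how libraries were brought to a common scale. Mitochondrially encoded rows took 16.1 ± 0.828% of the signal in YC-1 cells at 16 h, against 7.86 ± 0.275% in DMSO cells at 16 h, and 9.72 ± 1.53% in YC-1 cells at 6 h, against 7.33 ± 0.5% in DMSO cells at 6 h (SD, n = 3 each), and the part of this share in the changes was not tested beyond the scalings that follow. The median change over all genes was -0.03 with the deposited scaling, -0.31 with libraries scaled to equal sums, -0.22 with equal sums of the other rows, -0.06 with size factors recomputed on the 12 libraries, and -0.82 with libraries scaled to the ribosomal protein genes. The split of called changes was then 3063 higher and 3366 lower, 1480 and 5648, 1939 and 4885, 2838 and 3655, and 236 and 10023. Under the first 3 alternatives together, 98.7% of the growing lower, 91.8% of the late-only lower and 84.5% of the reversing higher genes kept their class. Only 45.2% of the growing higher, 46.8% of the late-only higher, 29.8% of the transient higher and 11.5% of the transient lower genes did so. All 4 alternatives moved the median change downwards, which tends to leave decreases that grow or start late in their class. No scaling that moves it upwards was tried. These shares therefore do not show that decreases depend less on scaling than increases do. Values below are relative to the deposited scaling unless stated.

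**Figure D2:**
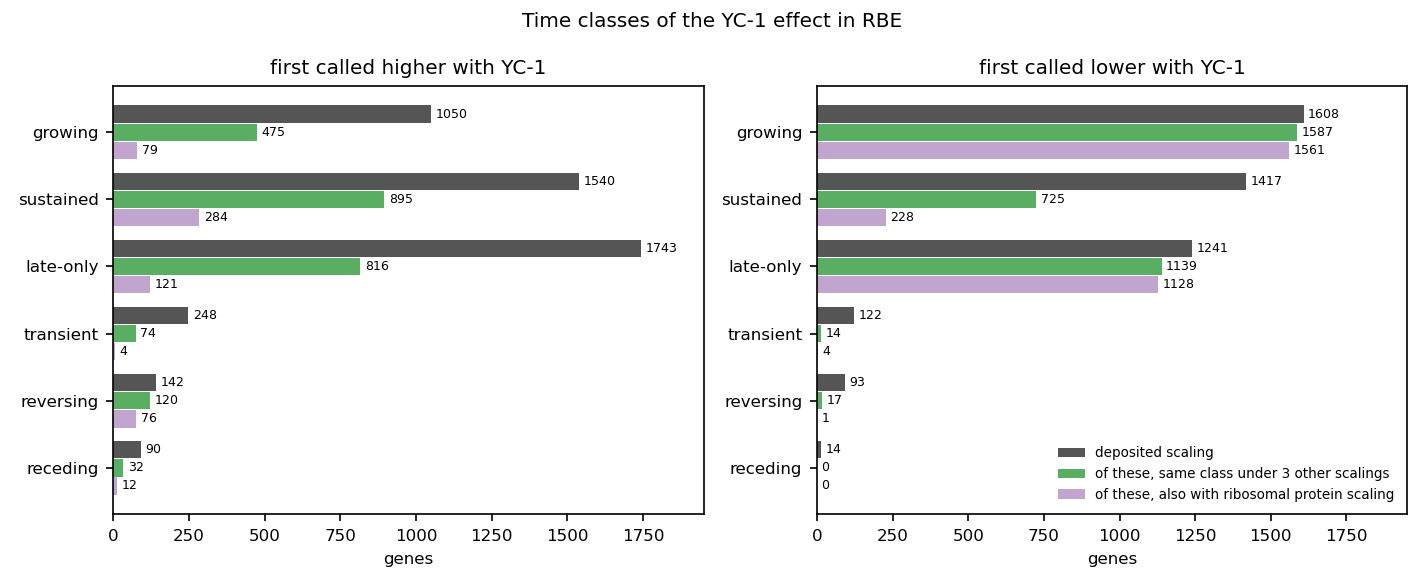
Number of genes (x axis) in each time class of the YC-1 effect in RBE, for genes first called higher (left panel) or lower (right panel), under the deposited scaling (dark bars), those with the same class under 3 other scalings (green), and those that also keep it with ribosomal protein scaling (purple). Growing lower genes number 1608, 1587 and 1561 in these bars, and growing higher genes 1050, 475 and 79.

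**Figure D3:**
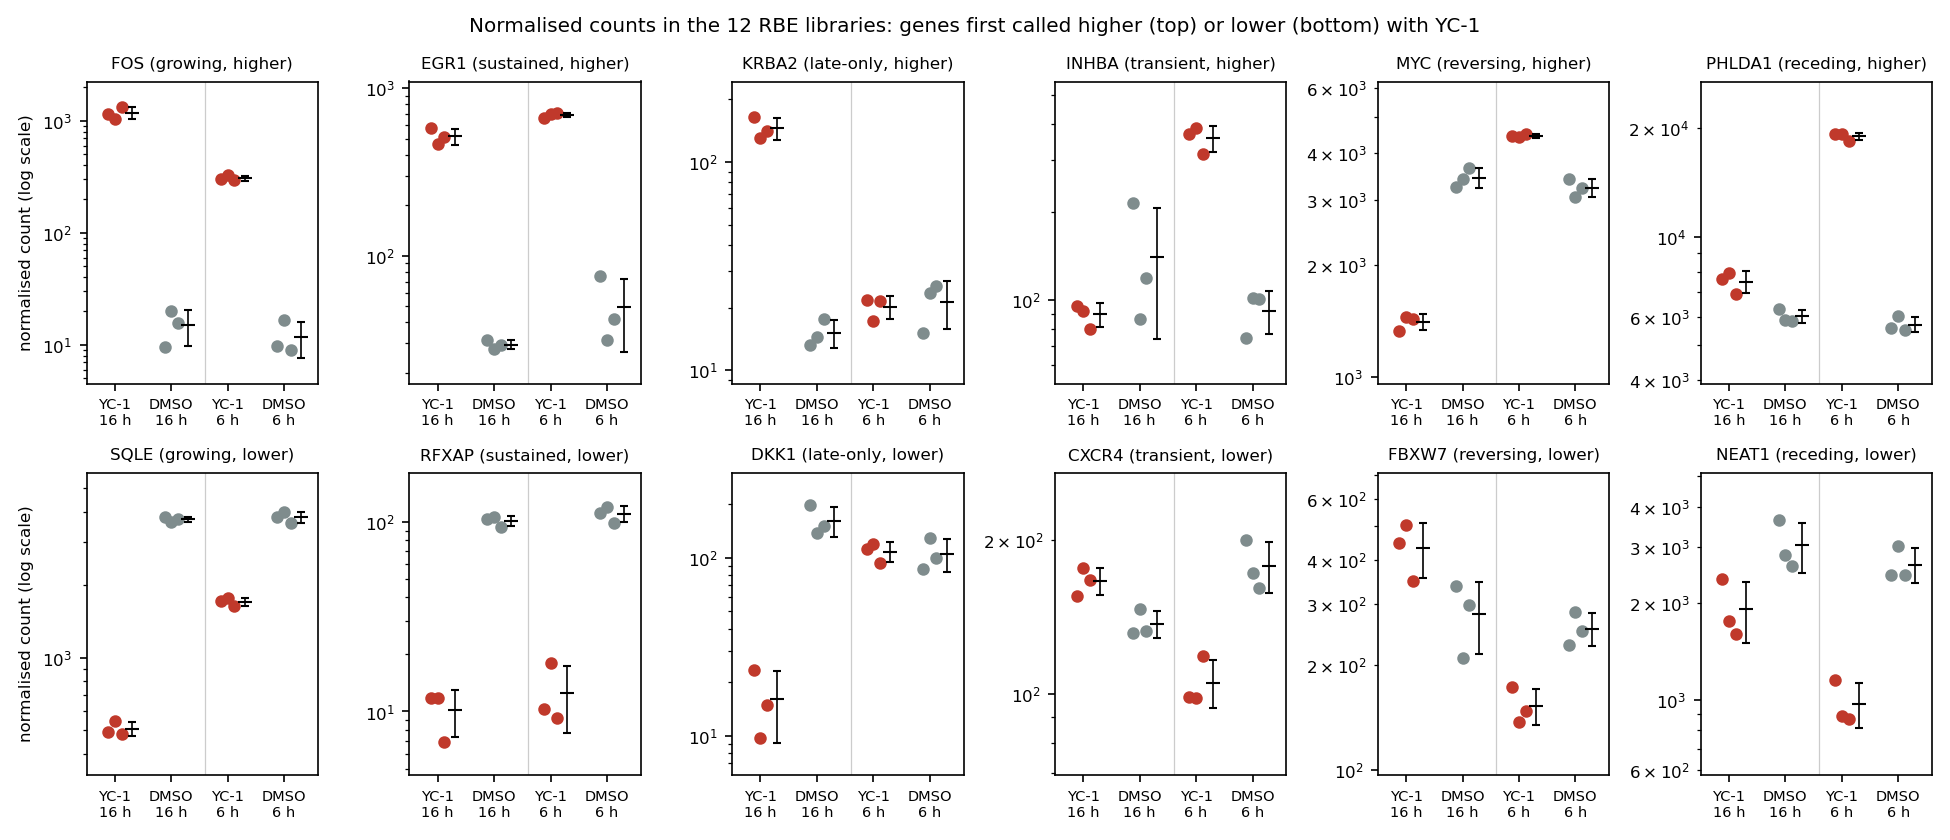
Normalised counts (y axis, log scale) in the 12 RBE libraries for 12 genes, 1 per time class and direction. Points are libraries and bars are the mean ± SD of 3, with the groups YC-1 16 h, DMSO 16 h, YC-1 6 h and DMSO 6 h from left to right. INHBA stands apart from DMSO in YC-1 libraries at 6 h only, DKK1 and KRBA2 at 16 h only, and MYC lies below DMSO at 16 h and above it at 6 h.

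Growing increases were led by AOC3, the vascular adhesion protein 1 amine oxidase (chromosome 17, 42851184 to 42858130). It had 230.2, 221.4 and 283.3 normalised counts in YC-1 libraries at 16 h, against 9.848, 17.84 and 6.359 in DMSO libraries at 16 h, and 48.7, 37.02 and 42.01 in YC-1 libraries at 6 h, against 20.74, 16.5 and 15.05 in DMSO libraries at 6 h. The YC-1 libraries lay above DMSO at both times, and those of 16 h lay above those of 6 h without overlap. The effect was 4.42 at 16 h and 1.24 at 6 h, a change of 3.17 ± 0.42 (SE, adjusted p = 6.08e-05). NHLH1, a helix-loop-helix transcription factor of developing neurons (chromosome 1, 160367067 to 160372848), averaged 147.4 ± 8.39 in YC-1 cells at 16 h, against 0.2426 ± 0.42 in DMSO cells, and 45.65 ± 8.67 in YC-1 cells at 6 h, against 1.456 ± 1.39 in DMSO cells (SD, n = 3 each). DMSO cells were thus near 0 at both times. C1orf162, SDCBP2 and TNFRSF10D, a decoy receptor for the death ligand TRAIL, completed the 5 largest, with changes of 2.88, 2.08 and 2.19. All 5 remained growing under each of the 4 other scalings.

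Among immediate early genes, FOS (chromosome 14, 75278774 to 75282230) and ATF3 were growing with the deposited scaling. FOS had 1152, 1044 and 1329 normalised counts in YC-1 libraries at 16 h, against 9.482, 19.87 and 15.71 in DMSO libraries, and 301.9, 325.7 and 294.6 in YC-1 libraries at 6 h, against 9.646, 16.53 and 9.055 in DMSO libraries. Its YC-1 libraries of 16 h stood above all others, and its DMSO libraries overlapped between the times. The change was 1.6 ± 0.36 (SE, adjusted p = 0.00279), and 0.8 with ribosomal protein scaling, where it missed the test (adjusted p = 0.0795). ATF3, a stress-induced repressor of the same leucine zipper class, averaged 16510 ± 962 in YC-1 cells at 16 h, against 174.6 ± 69.4 in DMSO cells, and 9068 ± 326 in YC-1 cells at 6 h, against 177.9 ± 5.7 in DMSO cells (SD, n = 3 each). Its change of 0.96 had adjusted p = 0.0102, but missed the test with libraries scaled to equal sums (0.0505) or to ribosomal protein genes (0.646) and without YC-1 6 h replicates 1 and 2 (0.065).

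p53 targets were the stress list with the most growing members. Of 28 tested, 25 rose and 2 fell at 16 h, where 35.7% of all genes rose and 34.4% fell. At 6 h 22 rose and 0 fell, where 20.7% of all genes rose and 21.7% fell. The change was called higher for 16 and lower for 2, against 18.9% and 20.7% of all genes, with a median of 0.50 against -0.03. Growing members numbered 12, all higher with YC-1, where 6.47% of all genes were growing and higher. TP53I3, a quinone oxidoreductase, averaged 2429 ± 128 in YC-1 cells at 16 h, against 355.1 ± 50.2 in DMSO cells, and 620.8 ± 37.4 in YC-1 cells at 6 h, against 365.4 ± 55.8 in DMSO cells (SD, n = 3 each), a change of 2.01. FDXR, the mitochondrial ferredoxin reductase, had effects of 2.71 and 0.98 at 16 h and 6 h, and GADD45A, a growth arrest protein, of 4.09 and 2.84. The cell cycle inhibitor CDKN1A averaged 17930 ± 579 in YC-1 cells at 16 h, against 4060 ± 189 in DMSO cells, and 12620 ± 528 in YC-1 cells at 6 h, against 4938 ± 496 in DMSO cells. MDM2, the ubiquitin ligase of p53 and a target of it, had effects of -0.16 and 0.03 and no called change (-0.20, 95% interval -0.45 to 0.06). Scaled to ribosomal protein genes, the median change of the list was -0.31 and that of CDKN1A -0.03.

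Growing decreases were the largest directed class after late-only increases. LRRN2, a leucine-rich repeat membrane protein (chromosome 1, 204617170 to 204685733), had 12.1, 7.553 and 7.399 normalised counts in YC-1 libraries at 16 h, against 122.4, 147.4 and 168.1 in DMSO libraries, and 104.4, 63.83 and 82.39 in YC-1 libraries at 6 h, against 223.4, 174.1 and 177.8 in DMSO libraries. No YC-1 library reached a DMSO library of the same time, and those of 16 h were lowest. The change was -2.69 ± 0.33 (SE, adjusted p = 3.28e-05). MAML2, a Notch coactivator with a span of 366583 bases (chromosome 11), had effects of -6.36 at 16 h and -3.78 at 6 h. It averaged 5.285 ± 4.82 in YC-1 cells at 16 h, so its change (-2.58 ± 0.93, adjusted p = 0.0392) rests on few counts. That call was lost without any 1 DMSO library and without YC-1 6 h replicate 1 or 3 (adjusted p 0.0547 to 0.0939). FIGN, PLCXD3 and GPHN, the postsynaptic scaffold gephyrin, had changes of -2.43, -2.42 and -2.42.

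Growing decreases made up 9.91% of all genes tested, and held 14 of 35 Notch, Wnt and TGF-beta genes and 13 of 30 chromatin regulators. Over all genes, 34.4% fell and 35.7% rose at 16 h, 21.7% fell and 20.7% rose at 6 h, and the change was lower for 20.7% and higher for 18.9%. Of the 35 Notch, Wnt and TGF-beta genes, 22 fell and 7 rose at 16 h, 17 fell and 8 rose at 6 h, and the change was called lower for 21 and higher for 1 (median -0.89). The Wnt coreceptor LRP6 had effects of -3.11 and -1.35 at 16 h and 6 h, the inhibitory SMAD6 of -3.65 and -2.07, and the Wnt effector TCF7L2 of -3.44 and -2.17. Of 30 chromatin regulators, 26 fell and 2 rose at 16 h, 18 fell and 3 rose at 6 h, and the change was lower for 19 and higher for 0 (median -0.69). The histone demethylase KDM6A (chromosome X, 44873177 to 45112602) had 98.91, 98.05 and 114.4 normalised counts in YC-1 libraries at 16 h, against 891.2, 868.3 and 853.8 in DMSO libraries, and 235.6, 277.8 and 223.9 in YC-1 libraries at 6 h, against 831.2, 810.7 and 876.1 in DMSO libraries. DMSO libraries overlapped between the times, while YC-1 libraries lay below them at both times and were lower at 16 h without overlap. Its change was -1.29 ± 0.15 (SE, adjusted p = 1.92e-05).

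Of the mitotic genes 14 of 28, and of the cholesterol synthesis genes 9 of 24, were growing decreases, where 9.91% of all genes were. Across all genes tested, 34.4% fell and 35.7% rose at 16 h, and 21.7% fell and 20.7% rose at 6 h. The change was lower for 20.7% and higher for 18.9% of them. Of 28 mitotic genes, 21 fell and 2 rose at 16 h, 19 fell and 1 rose at 6 h, and the change was lower for 16 and higher for 1. The spindle kinesin KIF11 averaged 866.4 ± 96.6 in YC-1 cells at 16 h, against 4145 ± 191 in DMSO cells, and 2451 ± 58.4 in YC-1 cells at 6 h, against 4157 ± 388 in DMSO cells (SD, n = 3 each). The checkpoint kinase TTK and the centrosome kinase AURKA had changes of -1.57 and -1.14. CDK1, KIF2C, TPX2 and NEK2 passed at neither time, with effects between -0.11 and 0.15. Of 24 cholesterol synthesis genes, 15 fell and 3 rose at 16 h, 11 fell and 1 rose at 6 h, and the change was lower for 12 and higher for 2. Squalene epoxidase SQLE averaged 508.1 ± 34.6 in YC-1 cells at 16 h, against 3714 ± 82.7 in DMSO cells, and 1702 ± 66.6 in YC-1 cells at 6 h, against 3793 ± 200 in DMSO cells. The constitutive chaperone HSPA8 had 10860, 11450 and 10220 normalised counts in YC-1 libraries at 16 h, against 67530, 63730 and 75870 in DMSO libraries, and 30300, 30530 and 29690 in YC-1 libraries at 6 h, against 67380, 71910 and 71190 in DMSO libraries, a change of -1.45 ± 0.09 (SE, adjusted p = 3.2e-07). Of the 22 heat shock genes tested, 11 fell and 6 rose at 16 h, and 17 fell and 2 rose at 6 h. Their change was higher for 9 and lower for 3 with the deposited scaling (median 0.16), but higher for 1 and lower for 9 with equal sums (median -0.14) and for 2 and 8 without the mitochondrial rows (median -0.04). It was higher for 7 and lower for 4 with size factors recomputed on the 12 libraries (median 0.12), and for 0 and 19 with ribosomal protein scaling. The direction of this list thus depends on the scaling. The antiapoptotic BCL2 relative MCL1 also grew downwards (effects -1.40 and -0.68).

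Sustained genes were the most frequent form among immediate early genes, 13 of 30. All 13 were higher with YC-1, and 9.49% of all genes tested were sustained and higher. EGR1, a zinc finger factor (chromosome 5, 138465490 to 138469315), had 577.2, 462.8 and 512 normalised counts in YC-1 libraries at 16 h, against 31.26, 27.64 and 29.12 in DMSO libraries, and 666.1, 702.4 and 709 in YC-1 libraries at 6 h, against 75.37, 31.12 and 41.99 in DMSO libraries. YC-1 libraries lay far above DMSO at both times. The effect was 4.09 at 16 h and 3.88 at 6 h, and the interval of the change ran from -0.49 to 0.92. NR4A3, FOSB and EGR3 were of the same form, NR4A3 with effects of 5.43 and 4.91. Outside the list, SELPLG, the ligand of P-selectin, averaged 319.9 ± 29.9 in YC-1 cells at 16 h, against 8.817 ± 2.46 in DMSO cells, and 207 ± 12.3 in YC-1 cells at 6 h, against 5.8 ± 2.11 in DMSO cells (SD, n = 3 each). RPL36A-HNRNPH2, a read-through locus whose values are uncertain because it shares sequence with both genes it joins, had effects of 7.82 and 6.18. DDIT3, which encodes CHOP, had effects of 2.94 and 3.24 and was sustained (change -0.29, adjusted p = 0.0718), but receding under all 4 other scalings.

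Sustained decreases included the MHC class II regulator RFXAP, with 11.82, 11.82 and 6.933 normalised counts in YC-1 libraries at 16 h, against 103.7, 105.6 and 94.35 in DMSO libraries, and 10.27, 18.01 and 9.191 in YC-1 libraries at 6 h, against 112, 119.7 and 98.93 in DMSO libraries. YC-1 libraries of both times overlapped and lay below all DMSO libraries, and the interval of the change ran from -0.96 to 0.70. LINC00704, IL1RAPL1, RGL1 and the ephrin EFNA5 had effects between -4.19 and -3.05 at 16 h and between -3.45 and -3.00 at 6 h. TET1, a DNA demethylation enzyme (-3.48 and -3.40), and AXIN2, a Wnt feedback gene (-2.76 and -3.17), were sustained as well. LINC00704 was growing with equal sums, and it, IL1RAPL1 and RGL1 with ribosomal protein scaling. A missed call on the change does not show equal effects: for 70.6% of the 2957 sustained genes the 95% interval of the change lay within 1 log2 unit of 0.

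Late-only increases were led by KRBA2 (chromosome 17, 8356902 to 8376711) and MYH3, an embryonic myosin heavy chain. KRBA2 had 164.9, 130.3 and 141.5 normalised counts in YC-1 libraries at 16 h, against 13.21, 14.38 and 17.71 in DMSO libraries, and 21.74, 17.26 and 21.58 in YC-1 libraries at 6 h, against 15.03, 23.46 and 25.27 in DMSO libraries. The groups did not overlap at 16 h and overlapped at 6 h, and the change was 3.23 ± 0.35 (SE, adjusted p = 1.29e-05). MYH3 had effects of 3.21 and 0.00 and SNX32, a sorting nexin, of 2.55 and 0.34. SNX32 averaged 125.7 in YC-1 cells at 16 h and 70.53 at 6 h, against 20.36 and 55.31 in DMSO cells. Its fall between the times in DMSO cells was called (-1.41, adjusted p = 0.0102) and was larger than its rise in YC-1 cells (0.81). C6orf52 had 2.21 and 0.02. PSMB8-AS1, an antisense transcript whose reads may not be separable from those of its partner since the strand setting is not given, had effects of 2.25 and -0.10. It too fell in DMSO cells, from 110.5 at 6 h to 62.95 at 16 h (-0.8, adjusted p = 0.0173), and rose by 1.55 in YC-1 cells.

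Ribosomal protein genes and nuclear genes of the respiratory chain rose at 16 h with few calls at 6 h. Across all genes tested, 35.7% rose and 34.4% fell at 16 h, and 20.7% rose and 21.7% fell at 6 h. The change was higher for 18.9% and lower for 20.7% of them. Of 50 cytosolic ribosomal protein genes, 49 rose and 1 fell at 16 h, 6 rose and 1 fell at 6 h, and the change was higher for 48 and lower for 0 (median 0.83). RPS12 had 28670, 29900 and 25870 normalised counts in YC-1 libraries at 16 h, against 11570, 11920 and 8793 in DMSO libraries, and 13190, 13310 and 15800 in YC-1 libraries at 6 h, against 15470, 13810 and 13580 in DMSO libraries. All YC-1 libraries of 16 h lay above the other 9. Of 43 nuclear genes of the respiratory chain, 36 rose and 2 fell at 16 h, 4 rose and 7 fell at 6 h, and the change was higher for 35 and lower for 0 (median 0.81). UQCRQ, a complex III subunit, had effects of 1.46 and -0.08 and NDUFA4 of 1.34 and -0.16. The 13 mitochondrially encoded mRNAs all rose at 16 h, 8 rose at 6 h, and the change was higher for all 13 (median 0.84). MT-CO1 averaged 876500 ± 43700 in YC-1 cells at 16 h, against 313300 ± 11700 in DMSO cells, and 396800 ± 78600 in YC-1 cells at 6 h, against 286900 ± 15300 in DMSO cells (SD, n = 3 each). Host transcripts of small nucleolar RNAs, 15 tested, had a median change of 0.81, with 10 higher and 0 lower, 13 higher at 16 h and 11 higher at 6 h. SNHG15 had effects of 3.46 and 2.0 and ZFAS1 of 2.31 and 0.93. Scaled to ribosomal protein genes, the median changes of these lists were 0.02, 0.00, 0.03 and 0.00, the first by construction, while the median over all genes was -0.82. These data do not fix a level common to all genes.

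Late-only decreases included DKK1, a secreted Wnt antagonist (chromosome 10, 52314296 to 52318042). It had 23.51, 9.754 and 14.88 normalised counts in YC-1 libraries at 16 h, against 197.6, 137.8 and 149.9 in DMSO libraries, and 112, 119.6 and 92.92 in YC-1 libraries at 6 h, against 85.93, 129.8 and 100.3 in DMSO libraries. At 16 h every YC-1 library was below every DMSO library, and at 6 h the groups overlapped. SLFN11, a replication stress factor, had effects of -1.99 and 0.31, and ART4, the Dombrock blood group protein, of -2.55 and 0.08. TANC2 had -3.82 and -1.03, where the earlier value missed the test (adjusted p = 0.119). ZBTB45P1 is a pseudogene and its effects of -4.10 and -0.93 are uncertain where reads were split with its parent gene. At 6 h its YC-1 libraries (51.29, 57.53 and 39.33) already lay below its DMSO libraries (91.38, 108.7 and 83.82) without overlap. The test was missed there (adjusted p = 0.358), so its place among late-only genes rests on a missed call. Its YC-1 libraries of 16 h had 12.86, 20.62 and 0. Its call on the change was lost without YC-1 6 h replicate 1 or 2, DMSO 6 h replicate 1 or 3, or any 1 DMSO library of 16 h (adjusted p 0.0544 to 0.0639).

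Most genes of homologous recombination and the Fanconi pathway fell at 16 h. Of 24, 15 fell and 2 rose at 16 h, 5 fell and 5 rose at 6 h, and the change was lower for 14 and higher for 1 (median -0.59). The shares over all genes were 34.4% lower and 35.7% higher at 16 h, and 21.7% lower and 20.7% higher at 6 h. For the change they were 20.7% lower and 18.9% higher. The counts of this list at 6 h were near these shares. BARD1, the partner of BRCA1, averaged 212.4 ± 19 in YC-1 cells at 16 h, against 833.7 ± 69.1 in DMSO cells, and 581.7 ± 44.6 in YC-1 cells at 6 h, against 747 ± 163 in DMSO cells (SD, n = 3 each). BRCA1 itself had effects of -0.93 and -0.20. BRCA2, a recombination mediator, was reversing, with -0.98 and 0.38. Among HIF-1 targets, which gave 14 higher and 7 lower at 16 h and 8 higher and 3 lower at 6 h of 28, lactate dehydrogenase LDHA was late-only with effects of -1.21 and -0.11 and the oxygen sensor EGLN1 with -1.32 and -0.15. Other glycolytic members such as ENO1 (0.53 and 0.07) and ALDOA (0.72 and 0.20) were late-only in the other direction. The sulfate transporter SLC26A2 had effects of -1.42 and -0.17, and GUCY1A3, a subunit of soluble guanylate cyclase with low counts, of -2.07 and 0.03. SULT1A1, whose reads may be shared with its near copies, stood at 1792, 1668 and 1916 in YC-1 libraries at 16 h, against 1433, 1655 and 1564 in DMSO libraries, and at 1792, 1778 and 1781 in YC-1 libraries at 6 h, against 1848, 1559 and 1702 in DMSO libraries. Its change of 0.14 was not called (interval -0.10 to 0.38). Its effect of 0.21 at 16 h was called (adjusted p = 0.0305), but missed the test without YC-1 16 h replicate 1 or 3 or DMSO 16 h replicate 1 or 3 (adjusted p 0.0549 to 0.135), and was -0.12 with libraries scaled to equal sums and -0.66 with ribosomal protein scaling.

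Transient increases were led by INHBA, the beta A subunit of activin (chromosome 7, 41667168 to 41705834). It had 96.02, 92.33 and 80.17 normalised counts in YC-1 libraries at 16 h, against 214.7, 86.36 and 119.5 in DMSO libraries, and 369.2, 386.6 and 315.3 in YC-1 libraries at 6 h, against 74.22, 101.8 and 100.7 in DMSO libraries. At 16 h the groups overlapped, and the 3 YC-1 libraries of 6 h stood above all others. The effect was -0.54 at 16 h (adjusted p = 0.0709) and 1.95 at 6 h, a change of -2.49 ± 0.36 (SE, adjusted p = 0.000115). ARID5B, a chromatin-associated DNA-binding protein, had 212.5, 203.6 and 194.8 in YC-1 libraries at 16 h, against 206.3, 223.5 and 243.4 in DMSO libraries, and 657.7, 609.5 and 623 in YC-1 libraries at 6 h, against 184.5, 215.7 and 247.8 in DMSO libraries. KLF9, a Krüppel-like repressor, had effects of -0.14 and 1.52, the adhesion scaffold NEDD9 of 0.20 and 1.77, and AKNA, an AT-hook protein, of -0.20 and 1.20. The orphan receptor NR4A1 had -0.19 and 1.98, whereas its relatives NR4A2 and NR4A3 were sustained. INHBA and ARID5B became reversing with either form of equal sums, and these, KLF9, NEDD9, AKNA and NR4A1 with ribosomal protein scaling.

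Transient decreases had a median change of 0.47, against -0.63 for transient increases. CXCR4, a chemokine receptor (chromosome 2, 136114349 to 136118165), had 155.5, 176.1 and 167 normalised counts in YC-1 libraries at 16 h, against 131.2, 146.4 and 132.4 in DMSO libraries, and 98.68, 98.09 and 118.3 in YC-1 libraries at 6 h, against 200.4, 172.7 and 160.7 in DMSO libraries. YC-1 lay above DMSO at 16 h without overlap, although the test was missed (effect 0.28, adjusted p = 0.079), and below it at 6 h without overlap. The change was 1.03 ± 0.19 (SE, adjusted p = 0.00076). ADGRB2, the centromere protein CENPW, the kinase PRKD2 and C4orf3 had changes of 1.44, 0.91, 0.87 and 0.82. PRKD2 and C4orf3 left the class with libraries scaled to equal sums, and CXCR4 and all 4 of these with ribosomal protein scaling.

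Reversing genes first called higher included MYC, the growth regulator on chromosome 8. It had 1325, 1452 and 1434 normalised counts in YC-1 libraries at 16 h, against 3251, 3402 and 3664 in DMSO libraries, and 4449, 4419 and 4522 in YC-1 libraries at 6 h, against 3411, 3052 and 3219 in DMSO libraries. YC-1 libraries were below all DMSO libraries at 16 h and above them at 6 h. The effects of -1.29 and 0.47 gave a change of -1.76 ± 0.09 (SE, adjusted p = 1.93e-07). CYP24A1, which degrades active vitamin D, averaged 320.2 ± 38.6 in YC-1 cells at 16 h, against 637.5 ± 29.4 in DMSO cells, and 1124 ± 238 in YC-1 cells at 6 h, against 478.9 ± 7.35 in DMSO cells (SD, n = 3 each). SRSF5, a splicing factor, averaged 602.3 ± 40.1 in YC-1 cells at 16 h, against 1463 ± 112 in DMSO cells, and 1812 ± 162 in YC-1 cells at 6 h, against 1179 ± 87.3 in DMSO cells. DPY19L2P2, a pseudogene whose reads may be shared with related genes, had effects of -1.36 and 0.58. These genes were reversing under all 4 other scalings.

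Of 19 feedback genes of MAP kinase signalling, 5 were reversing, where 1.45% of all genes were. Of the 19, 7 rose and 9 fell at 16 h, 10 rose and 2 fell at 6 h, and the change was lower for 11 and higher for 1 (median -0.51). Among all genes tested, 35.7% rose and 34.4% fell at 16 h, and 20.7% rose and 21.7% fell at 6 h. The change was lower for 20.7% and higher for 18.9% of them. The count of the list that rose at 16 h was near the share over all genes. The phosphatases DUSP10 (effects -0.81 and 0.48), DUSP16 (-0.62 and 0.54) and DUSP5 (-0.43 and 0.23) reversed, as did SPRY2, an inhibitor of receptor kinase signalling (-0.32 and 0.74), and the ETS factor ETV5. DUSP6 and DUSP8 were sustained and DUSP1 receded (1.95 and 2.38). Among immediate early genes, JUND (-0.47 and 0.57) and KLF6 (-0.49 and 0.42) reversed with MYC. In the other direction, FBXW7, the ubiquitin ligase subunit that recognises MYC, averaged 433.1 ± 78 in YC-1 cells at 16 h, against 281.1 ± 65.2 in DMSO cells, and 152.9 ± 18.1 in YC-1 cells at 6 h, against 254.3 ± 27.5 in DMSO cells (SD, n = 3 each). ZNF767P and DDTL had effects of 0.52 and -0.64 and of 0.52 and -0.62, and values of DDTL are uncertain where reads were split with its near copy DDT. ZNF767P was reversing under none of the 4 other scalings, DDTL only with recomputed size factors, and FBXW7 with these and with equal sums of the rows that are not mitochondrial. Of the 93 reversing genes lower at 6 h, 18.3% kept the class under the first 3 scalings.

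Receding increases were led by PHLDA1, a pleckstrin homology protein (chromosome 12, 76025447 to 76033932), with 7616, 7949 and 6927 normalised counts in YC-1 libraries at 16 h, against 6310, 5890 and 5839 in DMSO libraries, and 19240, 19240 and 18440 in YC-1 libraries at 6 h, against 5582, 6021 and 5504 in DMSO libraries. With the deposited scaling, YC-1 libraries lay above DMSO at both times, by a smaller margin at 16 h. The effects were 0.32 and 1.74, a change of -1.42 ± 0.09 (SE, adjusted p = 3.2e-07). The Notch ligand JAG1 had effects of 0.42 and 1.39 and the zinc finger protein RBAK of 0.40 and 1.36. The call at 16 h depended on the scaling: PHLDA1 and RBAK were transient with either form of equal sums, JAG1 with equal sums of all rows, and all 3 were reversing with ribosomal protein scaling. Of the 90 receding increases, 35.6% kept the class under the first 3 scalings. Of 24 ATF4 and CHOP response genes, 19 rose and 3 fell at 16 h, 20 rose and 1 fell at 6 h, and the change was higher for 6 and lower for 8. Of all genes, 35.7% rose and 34.4% fell at 16 h, and 20.7% rose and 21.7% fell at 6 h. The change was higher for 18.9% and lower for 20.7% of them. For the list it was higher for 4 and lower for 13 with equal sums, and for 0 and 18 with ribosomal protein scaling. It was higher for 5 and lower for 9 under each of the other scalings. With the deposited scaling the list was divided: ASNS, PSAT1, PHGDH, SLC3A2, PPP1R15A and NUPR1 grew, while CHAC1, PSPH, SLC7A11, SESN2 and STC2 receded. The glutathione-degrading enzyme CHAC1 averaged 509 ± 57.4 in YC-1 cells at 16 h, against 208.3 ± 25.3 in DMSO cells, and 1264 ± 11.8 in YC-1 cells at 6 h, against 294.8 ± 77.1 in DMSO cells (SD, n = 3 each). The amino acid transporter subunit SLC3A2 averaged 9939 ± 97.7 in YC-1 cells at 16 h, against 1581 ± 66.9 in DMSO cells, and 6756 ± 254 in YC-1 cells at 6 h, against 1940 ± 7.23 in DMSO cells. VEGFA (0.62 and 1.34) and the splicing factor SRSF6 (0.53 and 1.13) receded too. Of receding decreases, 14 in all, the nuclear noncoding RNA NEAT1 averaged 1918 ± 415 in YC-1 cells at 16 h, against 3039 ± 543 in DMSO cells, and 969.3 ± 156 in YC-1 cells at 6 h, against 2642 ± 331 in DMSO cells. None of the 14 kept the class under the first 3 scalings, and the changes of NEAT1 and COL5A1 (0.78 and 0.55) turned to -0.03 and -0.26 with ribosomal protein scaling. COL5A1 averaged 970.9 in YC-1 cells at 16 h and 890.6 at 6 h, against 1958 and 2660 in DMSO cells. Its difference between the times was thus larger in DMSO cells (-0.44) than in YC-1 cells (0.11), and neither was called.

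**Figure D4:**
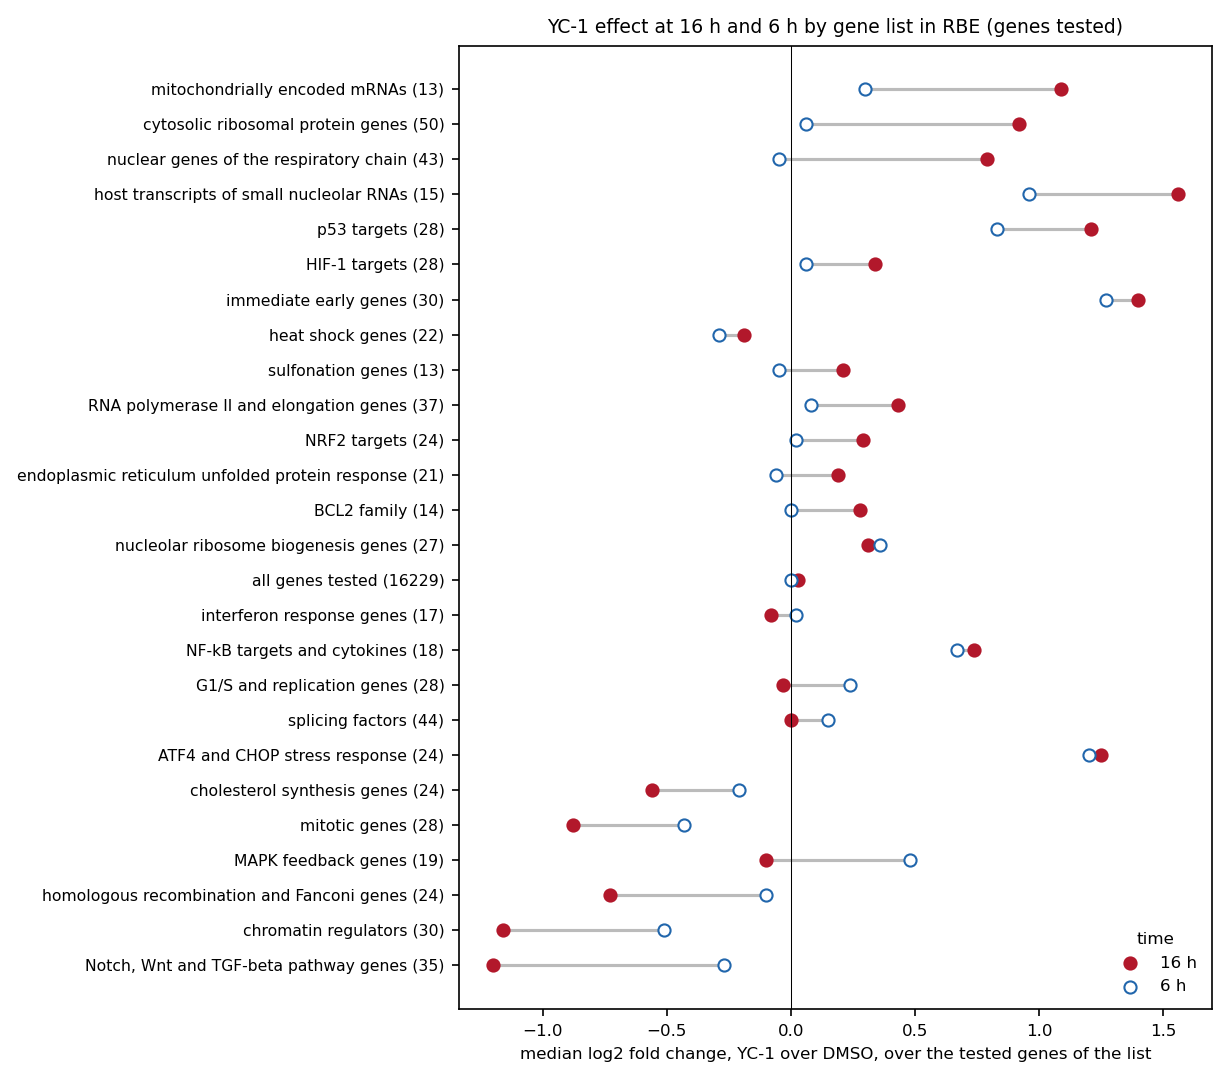
Median YC-1 effect (x axis, log2 fold change of YC-1 over DMSO) at 16 h (filled) and 6 h (open) over the tested genes of each list, with lists ordered from top to bottom by their median change and the number of genes in brackets. Ribosomal protein and respiratory chain lists lie near 0 at 6 h and at 0.92 and 0.79 at 16 h, MAPK feedback genes stand at -0.10 at 16 h and 0.48 at 6 h, and the ATF4 and CHOP list stands at 1.25 and 1.20.

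The promoters of 4 genes that took different courses are shown because their letters can be set beside these courses: EGR1 (sustained), ARID5B (transient), CHAC1 (receding) and DKK1 (late-only). Each is the 250 bases before the start that RefSeq gives (GRCh38.p14), written 5' to 3' on the plus strand, which is the coding strand of all 4. Capitals mark matches, on either strand, to the CArG box (the site of serum response factor), to TGATGCAA (the composite site of ATF4 and CHOP) and to TATAAA (the TATA box). The windows are chr5:138465229-138465478 for EGR1, chr10:61901449-61901698 for ARID5B, chr15:40953221-40953470 for CHAC1 and chr10:52314031-52314280 for DKK1.
EGR1: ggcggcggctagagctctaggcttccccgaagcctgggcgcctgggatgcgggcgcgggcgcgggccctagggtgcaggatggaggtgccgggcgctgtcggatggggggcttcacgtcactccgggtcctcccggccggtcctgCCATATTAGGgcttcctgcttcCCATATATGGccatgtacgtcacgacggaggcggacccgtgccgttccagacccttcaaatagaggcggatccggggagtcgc
ARID5B: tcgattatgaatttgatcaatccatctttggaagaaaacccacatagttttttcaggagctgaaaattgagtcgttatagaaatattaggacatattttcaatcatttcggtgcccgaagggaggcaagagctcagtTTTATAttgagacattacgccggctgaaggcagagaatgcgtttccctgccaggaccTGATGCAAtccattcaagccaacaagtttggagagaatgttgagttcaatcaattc
CHAC1: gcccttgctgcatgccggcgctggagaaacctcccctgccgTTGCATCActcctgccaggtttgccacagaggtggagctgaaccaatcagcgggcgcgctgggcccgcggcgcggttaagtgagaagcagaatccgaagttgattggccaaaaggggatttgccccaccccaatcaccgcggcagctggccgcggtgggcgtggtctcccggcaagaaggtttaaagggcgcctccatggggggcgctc
DKK1: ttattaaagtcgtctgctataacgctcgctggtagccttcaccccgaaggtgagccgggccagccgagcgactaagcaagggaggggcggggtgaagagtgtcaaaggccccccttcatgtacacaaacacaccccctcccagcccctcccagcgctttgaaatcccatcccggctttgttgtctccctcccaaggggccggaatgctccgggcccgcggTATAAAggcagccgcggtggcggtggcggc

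EGR1 held 2 CArG boxes, whose first bases lay 105 and 83 before the start. Over all promoters of the table, 1.14% held a CArG box, 0.82% the composite site and 11.1% a TATA box in this window. ARID5B held the composite site 56 bases and a TATA match 113 bases before the start, CHAC1 the composite site 209 bases before it, and DKK1 a TATA box 30 bases before it. The RefSeq starts of ARID5B and CHAC1 lie downstream of their GENCODE 29 starts at 61901300 and 40952962, so these windows lie within the gene as GENCODE annotates it. A match is a description of the letters and says nothing of binding. The table held a promoter for only 67.0% of the tested genes, so shares per class were not computed.

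The classes differed in a property that the sorting did not use, the genomic span of the gene from its first to its last annotated base. Growing lower genes had a median span of 112 kb and 55.5% of them spanned over 100 kb, whereas growing higher genes had a median of 13.9 kb with 1.65% over 100 kb. The median over all tested genes was 27.6 kb. Late-only lower genes (45.7 kb) and late-only higher genes (13.9 kb) were ordered the same way. So were sustained lower genes (74.6 kb, 41.4% over 100 kb) and sustained higher genes (17.3 kb, 2.21% over 100 kb). Span thus went with the direction of the effect also where no change was called. Transient and reversing higher genes had medians of 30.7 and 35.9 kb. Of 1689 genes under 3 kb, the change was called higher for 22.1% and lower for 5.92%, and of 522 genes over 300 kb, higher for 2.87% and lower for 40.2%. The median change was 0.32 and -0.60 in these bins, and 0.04 and -0.89 with libraries scaled to equal sums. Across 15720 genes the change had a Spearman rho of -0.35 with span, and the effect -0.44 at 16 h and -0.35 at 6 h, and the points share the 12 libraries. The change had a rho of -0.04 with the DMSO level at 6 h. The median of that level was 30.6 for genes under 3 kb, 241 for genes over 300 kb and 321 over all genes. How far this level bears on the shares called per bin was not tested.

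**Figure D5:**
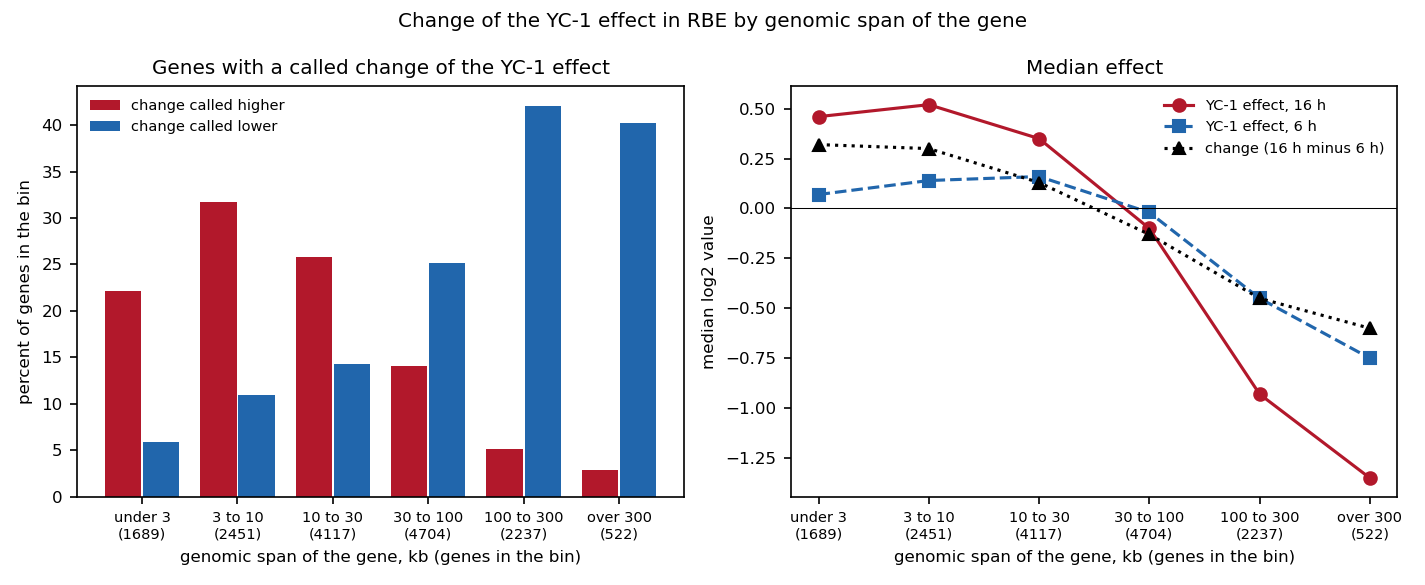
Left, percent of genes whose YC-1 effect had a called change, higher or lower, by genomic span in kb (x axis, genes per bin in brackets). Right, median YC-1 effect at 16 h and 6 h and median change on the log2 scale in the same bins. The lower changes make up 40.2% of genes over 300 kb and 5.92% of genes under 3 kb, and the median effect at 16 h is -1.35 in the longest bin and 0.46 in the shortest.

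Genes with a ZNF symbol, zinc finger proteins that are mostly transcriptional repressors, were looked at after their frequency in the classes was seen. They were 3.06% of all tested genes, but 13.3% of receding higher, 10.1% of transient higher and 7.75% of reversing higher genes. They were also 5.13% of sustained higher and 5.0% of late-only lower genes, and at most 2.4% of each other class. Of 497 tested, 142 rose and 171 fell at 16 h, where 35.7% of all genes rose and 34.4% fell. At 6 h 164 rose and 70 fell, where 20.7% of all genes rose and 21.7% fell. The change was higher for 30 and lower for 141, against 18.9% and 20.7% of all genes. Its median was -0.36, and between -1.15 and -0.40 with the other scalings.

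The same classes were then followed in SNU-1079, whose libraries took no part in the sorting. In a fit of all 24 libraries the change of the YC-1 effect in SNU-1079 was called for 3036 of 17860 genes (17.0%), 8.47% higher and 8.53% lower. Of the RBE growing higher genes, 40.0% changed higher and 1.05% lower in SNU-1079, and of the growing lower genes 35.3% changed lower and 0.746% higher. Transient higher genes (21.8% lower, 2.02% higher) and reversing higher genes (35.9% lower, 0.704% higher) were more often called lower, as in RBE. For transient lower genes the shares were 16.4% higher and 5.74% lower. Of the SNU-1079 libraries, 3 stood apart from their group (YC-1 16 h replicate 2, DMSO 16 h replicate 1 and YC-1 6 h replicate 1). Removing these 3 libraries was not planned but chosen after seeing the data, and it left fewer than 3 libraries in each of those groups. Without them the shares were 53.3% and 3.24% for growing higher, 49.2% and 1.87% for growing lower and 41.5% and 3.23% for transient higher genes, called with and against the RBE sign. For reversing higher genes they were 57.7% and 2.11%. For transient lower genes they were 25.4% and 13.9%, and the median change of that class in SNU-1079 was 0.0 without the 3 libraries and 0.16 with them. The share of all genes called was then 14.8% higher and 15.4% lower.

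The change differed between the lines, by a test of the difference itself, for 171 genes (0.957%). Without the 3 libraries, a removal that was not planned, the count was 1689. INHBA was among the 171, with a change of -2.49 in RBE and 0.45 in SNU-1079 (adjusted p = 0.00125). JAG1 changed by -0.97 in RBE and 0.11 in SNU-1079, and DUSP4, a nuclear MAP kinase phosphatase, by -1.13 and 0.15. ART4 changed by -2.64 in RBE and 1.43 in SNU-1079. EGR1, sustained in RBE (0.22), changed by -2.31 in SNU-1079 (adjusted p = 0.0206). For MYC the changes of -1.76 and -0.94 did not pass this test (difference -0.82, adjusted p = 0.0866), but the difference did pass without the 3 libraries (-1.13, adjusted p = 0.000479).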

How the data were processed

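RNA from RBE and SNU-1079 cells was sequenced as stranded mRNA libraries, per the labels' protocols. The authors deposited 1 table of a non-negative signal per gene, counts divided by size factors, made with STAR and DESeq2 on hg38 per the submitters' processing notes. Tool versions, the strand setting and the annotation release were not given in the sources used, and whole reads could not be recovered, so depth is approximate. The table had 57820 rows, 24157 of them at 0 in all 24 libraries. Symbols came from the file (35022) and from a gene table (4727). Positions came from GENCODE 29.

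Values were analysed as log2(value + 1) with limma 3.58.1 in R 4.3.3, with an intensity trend. Genes with at least 10 in at least 3 of the 12 RBE libraries entered (16229), and p-values were adjusted by Benjamini-Hochberg over all of them. The difference between the lines came from a fit of 24 libraries. P-values measure the spread between 3 libraries per group. The fit was tested on simulated data.

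The members, gene lists and tests were chosen with earlier results of these data known. Genes were named by rule: per direction the 5 largest changes in the growing, transient and late-only classes, 3 in the receding and reversing classes, and 5 sustained genes by the smaller effect, each with non-overlapping groups and a highest group mean of 100 or more, up to 4 per list, and 16 genes of interest. Some genes that this rule picks are not reported here. Other list members named were chosen after their values were seen. Python 3.11.15, pandas 2.3.3, numpy 2.4.6, scipy 1.17.1 and matplotlib 3.10.9 made the summaries and figures. Alternatives were other scalings, pseudocounts, filters, test settings, a replicate block and removal of libraries.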

Additional observations from a re-analysis of the deposited data

Results flagged for a closer look

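The change of the YC-1 effect between 16 h and 6 h was itself tested in RBE, and 6429 genes passed. The following values are changes of the log2 effect, 16 h minus 6 h, for named genes and genes of interest whose change passed limma's test. No cause was tested.

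Growing increases were AOC3 (3.17), C1orf162 (2.88), NHLH1 (2.52), TNFRSF10D (2.19) and SDCBP2 (2.08). Growing decreases were LRRN2 (-2.69), MAML2 (-2.58), FIGN (-2.43), PLCXD3 (-2.42) and GPHN (-2.42). Late-only increases were KRBA2 (3.23), MYH3 (3.21), PSMB8-AS1 (2.35), SNX32 (2.22) and C6orf52 (2.19). Late-only decreases were DKK1 (-3.37), ZBTB45P1 (-3.17), TANC2 (-2.79), ART4 (-2.64) and SLFN11 (-2.29).

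Genes higher at 6 h alone were INHBA (-2.49), ARID5B (-1.69), KLF9 (-1.66), NEDD9 (-1.57) and AKNA (-1.4). Genes lower at 6 h alone were ADGRB2 (1.44), CXCR4 (1.03), CENPW (0.91), PRKD2 (0.87) and C4orf3 (0.82). Receding increases were PHLDA1 (-1.42), JAG1 (-0.97) and RBAK (-0.95), and receding decreases NEAT1 (0.78) and COL5A1 (0.55). Genes lower at 16 h and higher at 6 h were CYP24A1 (-2.2), DPY19L2P2 (-1.94), SRSF5 (-1.9) and MYC (-1.76). Genes higher at 16 h and lower at 6 h were FBXW7 (1.37), ZNF767P (1.16) and DDTL (1.14) with the deposited scaling. The increase at 16 h was no longer called for ZNF767P under any of the 4 other scalings, for DDTL under 3 of them and for FBXW7 under 2.

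Among genes of interest, the change was more positive for FOS (1.6), MT-CO1 (1.04), ATF3 (0.96) and CDKN1A (0.79), and more negative for GUCY1A3 (-2.1), HSPA8 (-1.45) and MCL1 (-0.72).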

How the results depend on the processing

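Counts of called genes moved by over 1.5 times under the following settings, and the cause was not tested. With a test against a 1.5-fold minimum, counts were 739 for the change, 5326 at 16 h, 1354 at 6 h, 1003 between times in YC-1 cells and 0 in DMSO cells by limma, with 170 growing, 1018 sustained, 530 late-only, 14 transient, 1 reversing and 0 receding genes. With all 24 libraries they were 3256 for the change, 4290 at 6 h, 5568 between times in YC-1 cells and 8 in DMSO cells, with 1127 growing, 1903 late-only, 117 transient, 51 reversing and 19 receding. Without YC-1 6 h replicates 1 and 2, chosen after seeing the data, they were 4147 for the change, 4135 at 6 h, 5226 in YC-1 cells and 39 in DMSO cells, with 1389 growing, 120 transient, 56 reversing and 35 receding. Scaled to ribosomal protein genes, they were 10259 for the change and 32 in DMSO cells, with 1244 sustained, 5462 late-only, 609 transient, 680 reversing and 172 receding. Equal sums gave 360 reversing, and equal sums without mitochondrial rows 159 receding. In DMSO cells the count was 35 without a trend and 286 with quality weights. The difference between the lines was called for 2668 genes with quality weights and 1689 without the 3 SNU-1079 libraries, a removal also chosen after seeing the data.

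Leaving out 1 RBE library at a time gave 5653 to 6398 genes for the change, 10619 to 11486 at 16 h, 5836 to 7020 at 6 h, 7448 to 8702 in YC-1 cells and 18 to 95 in DMSO cells, with 2120 to 2654 growing, 2632 to 3133 sustained, 2542 to 3347 late-only, 276 to 370 transient, 164 to 229 reversing and 73 to 117 receding. Of 150 named genes with a called change, 137 lost the call in none of the 12 removals for which they had a value. SULT1C4 had a value in only 9 of them. HMOX1, not called, had a change between -0.17 and 0.11 in these removals, with 0.0 without YC-1 6 h replicate 1, 0.02 without DMSO 6 h replicate 2 or DMSO 16 h replicate 1, and 0.11 without YC-1 16 h replicate 2 or without YC-1 6 h replicates 1 and 2.

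Changes that turned sign with ribosomal protein scaling were NEAT1 (-0.03), COL5A1 (-0.26), DNAJB11 (-0.15), AHSA1 (-0.26), IL11 (-0.04), LIF (-0.28), SUMF1 (-0.24), KRT7 (-0.15), KRT8 (-0.25), SERPINA1 (-0.16), ACTA2 (-0.15), CD68 (-0.35) and CDKN1A (-0.03). The SULT1A1 effect at 16 h was -0.66 there and -0.12 with equal sums. With the replicate number as a block, 6121 genes had a called change. Same-numbered libraries had correlations between -0.186 and 0.101, so the numbers give no pairing, and the block changed no call on a named gene.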
